A study of Ovis aries with 62 samples.

Results

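The genes described here are 5 smooth muscle contractile and actin-binding genes of the rumen wall: CNN1 (ENSOARG00000018621), LMOD1 (ENSOARG00000000119), NEXN (ENSOARG00000013187), SYNPO (ENSOARG00000007513) and KCNMA1 (ENSOARG00000009163). They were chosen by name, and all 5 were among the 16011 genes measured. The samples were full-thickness pieces of rumen wall taken ventrally, with epithelium and muscle in 1 piece, from 62 adult Merino ewes (AUS sheep), with 1 RNA sequencing library per ewe. All ewes ate the same mixed lucerne and oat chaff above maintenance, and they were phenotyped in 4 test periods, called blocks 1 to 4, of 16, 16, 14 and 16 sheep. The sample labels gave the block, CH4 production, dry matter intake and live weight of each sheep, and CH4 yield was computed as CH4 production over intake. The study used ewes from few sires, the sire is not in the labels, and each p takes the sheep as independent. The study singled out SYNPO, NEXN and KCNMA1 with the help of rumen retention time in these same sheep, and SYNPO and NEXN also partly through CH4 yield, so relations of these genes with CH4 yield below are not independent evidence. Retention time was not analysed here.

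Smooth muscle shortens when calcium, through calmodulin and myosin light chain kinase, lets myosin pull on actin filaments that are anchored in dense bodies and in plaques at the membrane. In the rumen, waves of such contraction mix the contents and move digesta onward. CNN1 (calponin 1) binds actin and tropomyosin and restrains the myosin ATPase, and LMOD1 (leiomodin 1) nucleates actin filaments in smooth muscle. NEXN (nexilin) binds filamentous actin at adhesion sites and, in the heart, at the Z-disc. SYNPO (synaptopodin), studied mostly in kidney podocytes and neurons, binds actin and alpha-actinin. KCNMA1 is the pore-forming subunit of the BK channel, a potassium channel opened by calcium and depolarization that relaxes smooth muscle, and KCNMB1 is its partner subunit there.

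Values are log2 CPM, that is the log2 of a gene's reads scaled to the size of its library (CPM), and a step of 1 is a doubling. The libraries held 4208032 to 12130080 reads assigned to genes, with a median of 7923973. Block 1 libraries were shallower, by a mean of -0.32 on the log2 scale of assigned reads (permutation p = 0.00107). The least counted member, SYNPO, had 27 reads in its poorest library and a median of 106, while CNN1 had a median of 11749.5 reads. In these samples a smaller share of muscle cells and less RNA per muscle cell cannot be told apart. The 7 defining smooth muscle genes MYH11, MYL9, TAGLN, DES, CALD1, SMTN and TPM2 had at least 1111 reads each in every library. No 2 libraries were the same (highest r between libraries 0.968 across genes, which are not independent replicates).

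All 5 genes varied widely between sheep. CNN1 was at 8.95 log2 CPM in the lowest sheep, 10.62 at the median and 12.46 in the highest, an 11.4-fold range. LMOD1 was at 4.96 in the lowest sheep, 6.81 at the median and 7.85 in the highest, a 7.40-fold range. NEXN was at 4.15 in the lowest sheep, 6.39 at the median and 7.94 in the highest, a 13.9-fold range. The thin filament genes thus spread by similar amounts, with SD of 0.84 for CNN1, 0.64 for LMOD1 and 0.78 for NEXN on the log2 scale. SYNPO was at 2.30 in the lowest sheep, 3.65 at the median and 4.98 in the highest, a 6.39-fold range. KCNMA1 was at 3.82 in the lowest sheep, 5.72 at the median and 7.75 in the highest, a 15.2-fold range. The SD of the median gene of the table was 0.398, and the SD of the members lay between the percentiles 70.4 (LMOD1) and 79.9 (CNN1) of all genes.

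The same few sheep were at the extremes of several members. Sheep oz170 of block 2 was lowest for CNN1 (8.95), LMOD1 (4.96) and KCNMA1 (3.82), but its SYNPO value of 3.36 lay close to the median. Sheep oz141 of block 3 was lowest for NEXN (4.15) and low for KCNMA1 (3.89) and LMOD1 (5.03). At the other end, sheep oz109 of block 1 was highest for CNN1 (12.46) and KCNMA1 (7.75), and sheep oz165 of block 1 was highest for NEXN (7.94) and SYNPO (4.98). The mean of the muscle cluster genes described further on was lowest in these same sheep oz141 (5.02) and oz170 (5.10), and it was 6.59 in sheep oz109, near the highest value of 6.62.

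The study set block 1 apart for its lower epithelial differentiation genes in these same libraries, for reasons it called unknown. The mean of those genes had r of -0.63 with the mean of the muscle cluster genes over the 62 sheep. The comparison of block 1 with blocks 2–4 was thus picked from these data. Its limma and permutation p for the members are therefore not independent evidence. All 5 members were higher in block 1. CNN1 lay at 9.21 (lowest), 11.18 (median) and 12.46 (highest) log2 CPM in the 16 sheep of block 1, against 8.95, 10.38 and 12.28 in the 46 sheep of blocks 2–4. The groups overlapped, with 12 of 16 block 1 sheep above the median of blocks 2–4 and 1 above the highest sheep there. LMOD1 lay at 6.49, 7.21 and 7.85 in block 1, against 4.96, 6.74 and 7.71 in blocks 2–4. NEXN lay at 5.44, 6.97 and 7.94 in block 1, against 4.15, 6.16 and 7.47 in blocks 2–4. For LMOD1, 12 of 16 block 1 sheep were above the median of blocks 2–4, and for NEXN 14 of 16. SYNPO lay at 2.95, 4.51 and 4.98 in block 1, against 2.30, 3.54 and 4.48 in blocks 2–4, and 9 of 16 block 1 sheep exceeded the highest sheep of blocks 2–4. KCNMA1 lay at 5.25, 6.56 and 7.75 in block 1, against 3.82, 5.58 and 6.74 in blocks 2–4, with 15 of 16 block 1 sheep above the median of blocks 2–4 and 7 above its highest sheep.

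**Figure D1:**
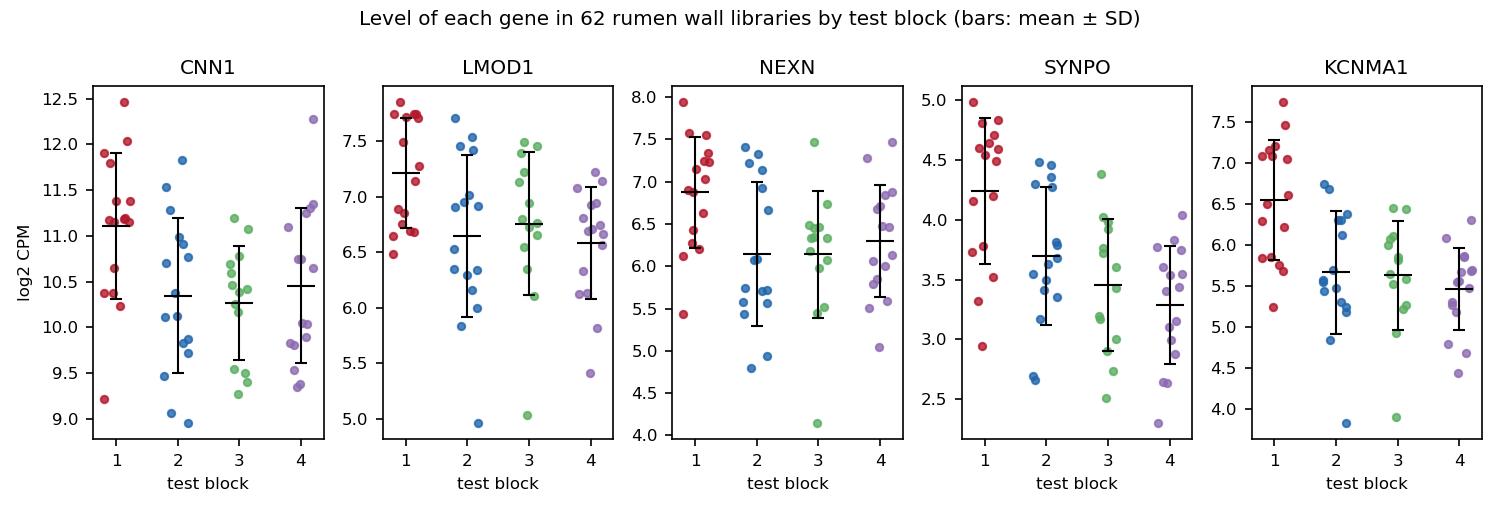
Log2 CPM of each gene (y axis, own scale per panel) in the 62 libraries, by test block (x axis). Each point is a sheep and the bars give the mean and SD of the block. Block 1 has the highest mean in all 5 panels, and its sheep overlap those of the other blocks.

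In the limma fit over all genes, with p adjusted by Benjamini-Hochberg and a threshold of 0.05, all 5 members passed as higher in block 1. Of all genes tested, 17.2% passed as higher in that comparison (2755 of 16011), and 3087 passed as lower. The largest difference among the members was that of KCNMA1, at 0.97 log2 units (SE 0.186, 1.95-fold, adjusted p = 3.67e-05). SYNPO was 0.76 higher (SE 0.160, 1.69-fold, adjusted p = 0.000142). CNN1 was 0.75 higher (SE 0.218, 1.68-fold, adjusted p = 0.00543), NEXN 0.68 higher (SE 0.203, 1.60-fold, adjusted p = 0.00662) and LMOD1 0.56 higher (SE 0.166, 1.47-fold, adjusted p = 0.00633). All 5 calls held when any single sheep was left out, and a permutation test of each difference gave p between 3e-05 for KCNMA1 and 0.00233 for NEXN. With the depth of each library in the fit the differences were between 0.64 (LMOD1) and 1.02 (KCNMA1), and all 5 passed.

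In the limma F test over the 4 blocks, 4 of 5 members passed, against 26.5% of all genes. The means of SYNPO were 4.24, 3.69, 3.45 and 3.29 log2 CPM in blocks 1 to 4 (adjusted p = 0.000530), and those of KCNMA1 were 6.55, 5.67, 5.63 and 5.46 (adjusted p = 0.000582). Both genes had their highest mean in block 1 and their lowest in block 4. CNN1 had means of 11.10, 10.34, 10.27 and 10.46 (adjusted p = 0.0466), and LMOD1 had means of 7.21, 6.65, 6.76 and 6.58 (adjusted p = 0.0485). NEXN, with means of 6.87, 6.14, 6.14 and 6.30, did not pass (adjusted p = 0.0537). Leaving out 1 sheep at a time moved CNN1, LMOD1 and NEXN across the threshold, with 29, 29 and 15 of 62 fits called, while KCNMA1 and SYNPO were called in all 62 fits.

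The other genes of the contractile system were higher in block 1 as well. All 15 genes of the actin and myosin apparatus passed as higher, and the smallest p belonged to ACTN1, an alpha-actinin of dense bodies and plaques (0.94, SE 0.186), VCL, the vinculin of membrane plaques (0.51, SE 0.103), and MYL9, the regulatory myosin light chain (0.65, SE 0.196). Of 13 ion channel and calcium handling genes, 12 passed as higher, among them CACNA1C, the pore of the L-type calcium channel (0.71, SE 0.159), its subunit CACNB2 (0.67, SE 0.160) and STIM1, the calcium sensor of the sarcoplasmic reticulum (0.52, SE 0.115). KCNMB1, the partner of KCNMA1, was 0.45 higher (SE 0.173, adjusted p = 0.0330). Of 26 cell junction and dense plaque genes, 25 passed as higher, including LPP (0.83, SE 0.156), PARVA (0.64, SE 0.129) and SYNPO2, an actin-bundling relative of SYNPO (0.71, SE 0.199). Of 7 genes of cyclic nucleotide and myosin phosphatase control, 6 passed as higher, with PRKACA, a catalytic subunit of protein kinase A, at 0.85 (SE 0.174). Of 8 regulators of smooth muscle genes, 7 passed as higher, with RBPMS at 0.77 (SE 0.159). No gene of these 5 lists passed as lower. The median difference was 0.75 over the members and between 0.36 and 0.52 over these 5 lists, against -0.01 over all genes.

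Epithelial, matrix and striated muscle genes also differed in the same comparison. Of 43 epithelial differentiation genes, 37 passed as lower in block 1 and 0 as higher, and their summed level ran from 4644 to 38822 CPM in block 1, against 17998 to 46358 CPM in blocks 2–4. Of 50 matrix genes, 37 passed as higher and 0 as lower, and their sum ran from 8873 to 20302 CPM in block 1, against 6370 to 22963 CPM in blocks 2–4. Of 7 striated muscle genes 6 passed as higher, and their sum ran from 248 to 768 CPM in block 1, against 108 to 629 CPM in blocks 2–4. No gene of these 3 lists was without reads in any library. The study drew the epithelial, matrix and muscle cluster lists from these libraries, so their directions are not independent evidence. The striated muscle genes were named from the paper's tables too, and the same limit holds for them. The mean of 643 genes of the study's muscle cluster without the members, called the muscle mean here, was 6.23, 5.83, 5.83 and 5.76 log2 CPM in blocks 1 to 4, and 508 of these genes passed as higher in block 1 and 1 as lower. The means of the matrix and striated muscle lists had r of 0.96 and 0.93 with the muscle mean, so they did not vary separately from it. The part of muscle share, epithelium and depth in the block 1 difference of the members was not tested apart from the fits that follow.

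The members followed the muscle mean closely, and r was lowest for SYNPO. CNN1, LMOD1, NEXN and KCNMA1 are on the muscle cluster list used here, so these correlations are descriptions. SYNPO is not on that list, but the paper places its retention time candidates, SYNPO among them, in the muscle cluster. Over the 62 sheep, r with the muscle mean was 0.96 for LMOD1, 0.94 for KCNMA1, 0.90 for NEXN, 0.83 for CNN1 and 0.72 for SYNPO. Within single blocks r ran from 0.93 to 0.97 for LMOD1, from 0.90 to 0.94 for KCNMA1, from 0.84 to 0.93 for NEXN, from 0.72 to 0.95 for CNN1 and from 0.56 to 0.74 for SYNPO. The muscle mean took up 91.4% of the variance of LMOD1 between sheep, 88.4% of that of KCNMA1 and 69.2% of that of CNN1, and block took up between 15.3% (NEXN) and 31.2% (SYNPO). Per log2 unit of the muscle mean, KCNMA1 gained 1.97 (SE 0.0903), NEXN 1.88 (SE 0.113), CNN1 1.87 (SE 0.156), LMOD1 1.63 (SE 0.0643) and SYNPO 1.26 (SE 0.152) log2 units.

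**Figure D2:**
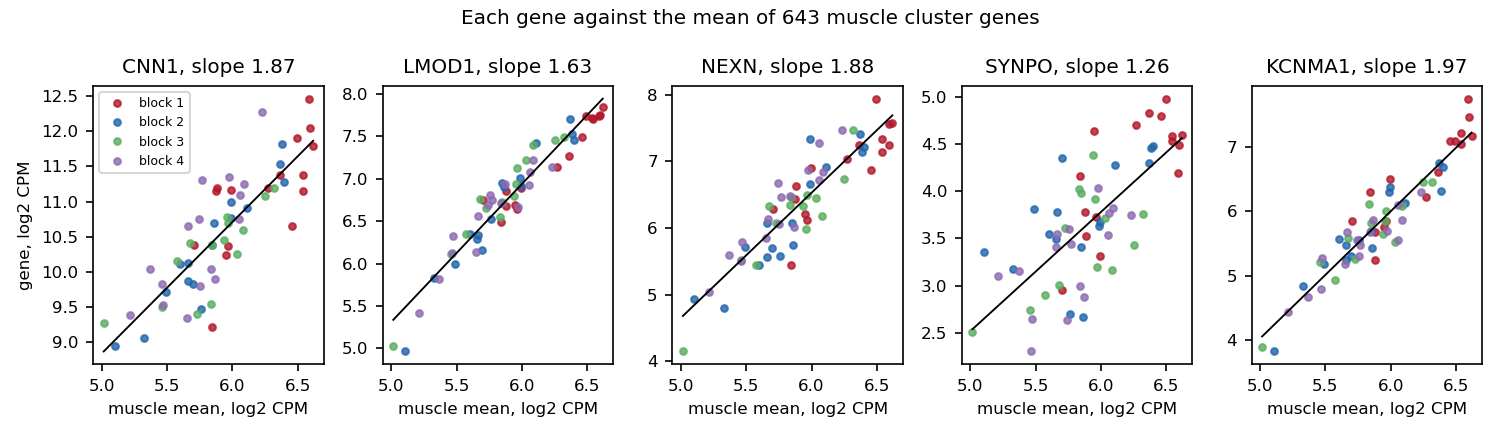
Log2 CPM of each gene (y axis) against the mean log2 CPM of 643 muscle cluster genes (x axis), with 1 point per sheep coloured by block and a fitted line over all 62 sheep. LMOD1 has the highest r and SYNPO the lowest (0.96 and 0.72), and all 5 slopes are above 1.

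The study itself held muscle expression constant in its models because the amount of muscle in such samples varies, and the same was done here. With the muscle mean in the fit, 1 of 5 members passed. LMOD1 was 0.18 log2 units lower in block 1 than in blocks 2–4 (estimate -0.18, SE 0.0594, adjusted p = 0.0349), where 7.04% of all genes passed as lower and 7.28% as higher. The other estimates were 0.30 for SYNPO (SE 0.146, adjusted p = 0.164), 0.18 for KCNMA1 (SE 0.0862, adjusted p = 0.167), -0.16 for NEXN (SE 0.109, adjusted p = 0.356) and -0.06 for CNN1 (SE 0.153, adjusted p = 0.838). At equal muscle mean, 1 of 15 actin and myosin genes, 1 of 13 ion channel and calcium genes and 1 of 7 cyclic nucleotide genes passed as lower and 0 as higher. Of the 26 junction genes, 2 passed as higher and 1 as lower, and of the 8 regulators 0 passed. Of these genes, KCNMB1 was lower (-0.27, SE 0.0855, adjusted p = 0.0237), as was CALD1, the actin-binding caldesmon (-0.34, SE 0.118, adjusted p = 0.0411). The junction genes UTRN and ITGA5 were higher (0.18, SE 0.0496, and 0.42, SE 0.147), while DTNA, a dystrophin-associated protein, and MRVI1, a target of cGMP kinase, were lower (-0.25, SE 0.0773, and -0.19, SE 0.0553).

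These estimates depended on which genes stood for muscle. With the mean of the 15 actin and myosin genes in place of the muscle mean, KCNMA1 was 0.46 higher in block 1 (SE 0.117, adjusted p = 0.00236) and SYNPO 0.52 higher (SE 0.155, adjusted p = 0.0109), where 10.9% of all genes passed as higher. LMOD1 then stood at 0.07 (SE 0.0883, adjusted p = 0.597), and its call was also lost with the means of the junction, matrix or ion channel lists as the measure, with library depth in the fit (adjusted p = 0.158), and when sheep oz93, oz143, oz184, oz192 or oz196 was left out. KCNMA1 was called higher as well with the junction list (0.28, adjusted p = 0.0191) or the ion channel list (0.30, adjusted p = 0.0120) as the measure, where 8.79% and 8.77% of all genes passed as higher. SYNPO was called higher with the ion channel list (0.43, adjusted p = 0.0402) and had adjusted p = 0.0618 with the junction list. CNN1 and NEXN passed under none of the 5 muscle measures.

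**Figure D3:**
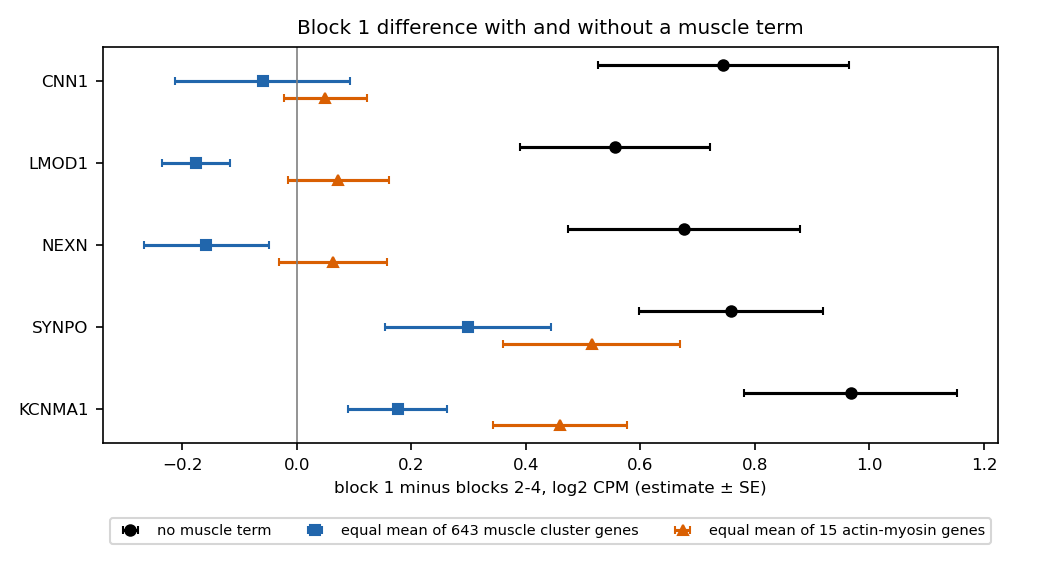
Difference of block 1 minus blocks 2–4 in log2 CPM (x axis, estimate and SE from limma) for each gene (rows), without a muscle term, at equal mean of the 643 muscle cluster genes and at equal mean of the 15 actin and myosin genes. KCNMA1 and SYNPO stay to the right of 0 in all 3 fits, and LMOD1 lies at -0.18 with the cluster mean and at 0.07 with the actin and myosin mean.

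Ratios of 2 genes within a library do not depend on how the library was scaled. They can still change with the muscle level, because the slopes on the muscle mean differed (KCNMA1 1.97, LMOD1 1.63, KCNMB1 1.55). The ratios were not fitted at equal muscle mean, so the part of muscle level in them was not tested. Of the 10 pairs of members, the log2 ratio of KCNMA1 over LMOD1 was -0.66 in block 1 and -1.08 in blocks 2–4, a difference of 0.41 (SE 0.103, permutation p = 2e-05), and 15 of 16 block 1 sheep were above the median of blocks 2–4. At equal library depth the difference was 0.38 (SE 0.0925). NEXN over KCNMA1 was 0.32 in block 1 and 0.61 in blocks 2–4, a difference of -0.29 (SE 0.144, permutation p = 0.0176), and the difference was -0.24 (SE 0.131) at equal depth. The other 8 pairs gave differences between -0.08 and 0.22 with permutation p between 0.175 and 0.951, all p unadjusted. The BK channel subunits also differed: KCNMA1 over KCNMB1 was 0.80 in block 1 and 0.29 in blocks 2–4, a difference of 0.51 (SE 0.122, permutation p = 5e-05), and it was 0.43 (SE 0.124) at equal depth. SYNPO over SYNPO2 was -6.36 in block 1 and -6.41 in blocks 2–4, a difference of 0.05 (SE 0.148, permutation p = 0.732).

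Among themselves, the 4 members on the muscle cluster list varied together over sheep. Their r ran from 0.76 (KCNMA1 with CNN1) to 0.91 (KCNMA1 with LMOD1), and after centring each block from 0.73 to 0.90. SYNPO had lower r with them, at 0.66 with KCNMA1, 0.63 with NEXN, 0.58 with LMOD1 and 0.53 with CNN1 (rho 0.64, 0.60, 0.57 and 0.54). Each of these 4 permutation p for r was 1e-05, the smallest that 100000 permutations can give, and r was 0.69, 0.60, 0.55 and 0.50 in the same order of partners when the 2 farthest sheep were left out. Within single blocks SYNPO kept a positive r with every partner, from 0.28 (CNN1, block 1) to 0.62 (NEXN, block 3). The r of SYNPO with its relative SYNPO2 was 0.74 (rho = 0.73, permutation p = 1e-05), and that of KCNMA1 with KCNMB1 was 0.82. The paper counts SYNPO as a muscle cluster gene too, so the permutation p of its pairs are not independent evidence.

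With the muscle mean removed from both genes of a pair, most of these correlations shrank. CNN1 and NEXN kept r = 0.52, and SYNPO and LMOD1 turned to r = -0.53. The other 8 pairs lay between -0.18 and 0.19. What remained of CNN1 went with the actin and myosin genes (r = 0.90) and the junction genes (r = 0.72). What remained of NEXN went with the junction genes (r = 0.74), and what remained of LMOD1 with the ion channel and calcium genes (r = 0.46). For SYNPO the residual r was -0.67 with the ion channel genes and 0.62 with 4 mitochondrially encoded genes. For KCNMA1 no residual r with a muscle or junction list was above 0.19. These residual values are descriptions over lists that share many genes with the muscle mean.

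**Figure D4:**
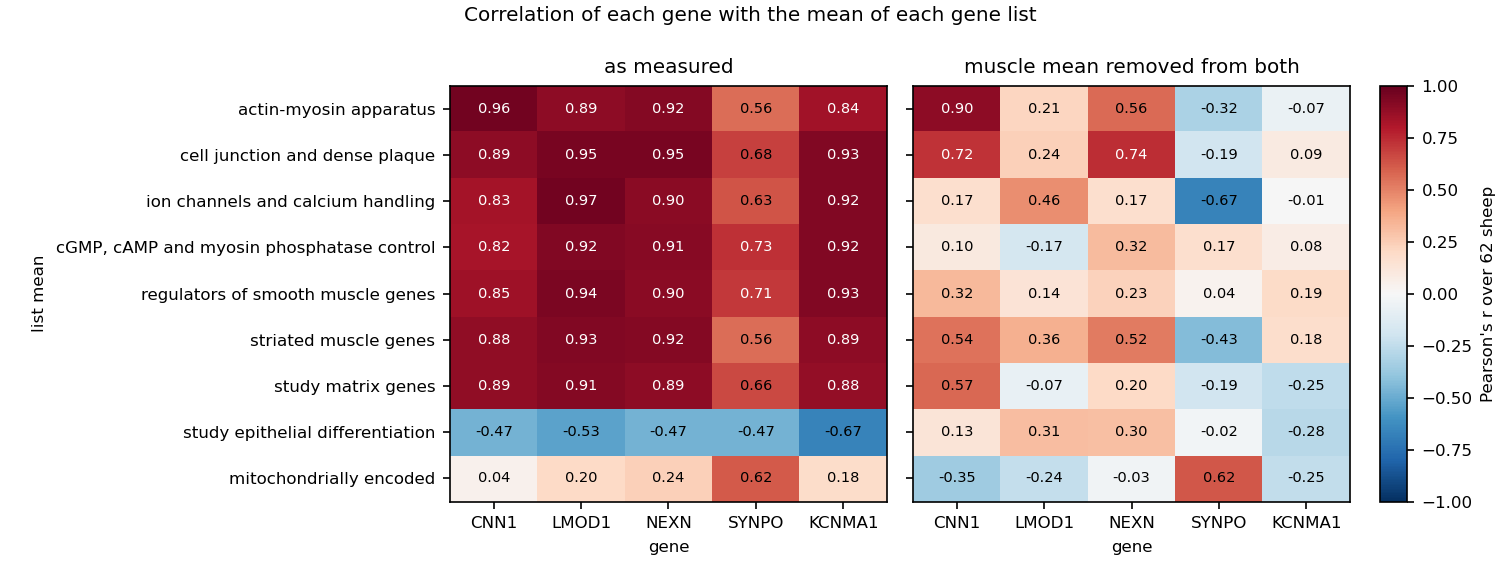
Pearson's r over 62 sheep of each gene (columns) with the mean log2 CPM of each gene list (rows), as measured (left) and after the muscle mean was removed from both (right). As measured, r with the 6 muscle-related lists is between 0.82 and 0.97 except for SYNPO, at 0.56 to 0.73. After removal CNN1 keeps 0.90 with the actin and myosin genes and SYNPO keeps 0.62 with the mitochondrially encoded genes.

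The level of mitochondrially encoded transcripts was related to SYNPO and hardly to the other members. The r of SYNPO with the mean of COIII, CYT.B, MT-ATP6 and MT-ND5 was 0.62 over all sheep and 0.60 when the 2 farthest were left out. By block it was 0.66, 0.63, 0.72 and 0.51. For CNN1, KCNMA1, LMOD1 and NEXN the same r was 0.04, 0.18, 0.20 and 0.24. Outside the members, SYNPO2 had r = 0.39, and 0.42 with the muscle mean removed from both, and the muscle mean itself had r = 0.28. None of the 4 mitochondrially encoded genes passed between block 1 and blocks 2–4 by limma, and none was under 0.05 without adjustment. All 5 members had negative r with the mean of the epithelial differentiation genes, from -0.47 for CNN1, NEXN and SYNPO to -0.67 for KCNMA1. In blocks 2–4 alone that r was 0.05 for SYNPO and -0.44 for KCNMA1.

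Among the 1224 genes with a symbol, the genes closest to each member over the 62 sheep differed from member to member. CNN1 went with TAGLN, DES and TPM2 (r = 0.97, 0.97 and 0.96), which encode transgelin, the intermediate filament desmin and a tropomyosin, and these were the 3 closest of all 16010 other genes. KCNMA1 went with PRUNE2, SVIL and CACNA1C (r = 0.94, 0.94 and 0.93). SVIL encodes supervillin, which ties actin and myosin to the membrane, and CACNA1C the calcium channel named above. LMOD1 went with AKAP12, a scaffold of protein kinase A, TLN1, the talin of plaques, and CAMK2G, a calmodulin kinase (r = 0.95, 0.95 and 0.95). NEXN went with LAMC1, a laminin chain of basement membranes, CALD1, and SAMD4A, an RNA-binding translational repressor (r = 0.93, 0.93 and 0.93). SYNPO went with BMPR2, a receptor of bone morphogenetic proteins, FAM120A and SKI, a repressor of SMAD signaling (r = 0.89, 0.88 and 0.87). Of the 50 closest genes, between 46 and 48 were on the study's muscle cluster list for the 4 members on it, and 26 were for SYNPO. The list held 647 of the 16011 genes. It was drawn from correlations in these libraries, so these counts are descriptions.

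At the other end, HDAC1, a histone deacetylase, was among the 3 named genes with the lowest r for CNN1 (-0.71), LMOD1 (-0.86), NEXN (-0.76) and KCNMA1 (-0.84). KCNMA1 was lowest with ARPC5L, a subunit of the Arp2/3 actin nucleator (-0.86). LMOD1 was also low with ARPC5L (-0.80) and AFG3L2, a mitochondrial protease (-0.80). CNN1 was low with AFG3L2 (-0.71) and MAL2 (-0.70), and NEXN with LIMK2, a kinase that acts on cofilin (-0.77), and AFG3L2 (-0.76). SYNPO was low with TMEM208 (-0.77) and CLTB, a clathrin light chain (-0.76). The number of genes with r above 0.8 was 378 for LMOD1, 273 for KCNMA1, 240 for NEXN, 162 for CNN1 and 73 for SYNPO.

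No member passed in a limma regression on any of the 4 traits, with or without the muscle mean and block in the fit. In 5 members and 4 traits, 20 relations were computed. On CH4 production, where 0.0125% of all genes passed, the r of the members lay between -0.02 (LMOD1) and 0.02 (KCNMA1), with permutation p between 0.889 and 0.976 and rho between -0.01 (KCNMA1) and 0.09 (CNN1). On live weight, where 0.0187% of genes passed, r lay between -0.02 (KCNMA1) and 0.17 (NEXN, rho = 0.17, permutation p = 0.191). On dry matter intake, without sheep oz151, whose labelled intake was far below that of every other sheep (n = 61), r lay between 0.10 (LMOD1) and 0.19 (SYNPO, rho = 0.23, permutation p = 0.139), and 0% of genes passed. With the muscle mean and block in the fit, 0.0625% of genes passed on CH4 production, 0.250% on live weight and 0% on CH4 yield and on intake, and no member was among them. The lowest adjusted p of a member in these 8 limma fits was 0.400, that of SYNPO on CH4 yield. Without adjustment a member was under 0.05 in 2 of the 8 fits, SYNPO on CH4 yield and NEXN on live weight at equal muscle mean and block (p = 0.0416). Where 0% of genes passed, unadjusted p was under 0.05 for 1899 genes on intake and 1521 on CH4 yield, and for 1270 and 742 with the muscle mean and block in the fit.

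CH4 yield gave the lowest p of the traits, for SYNPO. The slope of SYNPO was -0.06 log2 units per g/kg of CH4 yield (SE 0.0238, unadjusted limma p = 0.0151, adjusted p = 0.400, n = 61), and 9.50% of all genes reached an unadjusted p under 0.05, while 0% passed after adjustment. The r of SYNPO was -0.30 (permutation p = 0.0170) and rho was -0.39 (permutation p = 0.00204), and r was -0.37 without the 2 sheep farthest in CH4 yield. After centring each block r was -0.12, and in blocks 1 to 4 it was -0.10, -0.51, -0.11 and 0.19. Mean CH4 yield was 19.0, 19.8, 20.8 and 22.6 g/kg in blocks 1 to 4, and mean SYNPO was lower in the blocks with more CH4 per feed. The other members had r between -0.11 (CNN1) and -0.18 (KCNMA1), with rho between -0.21 (LMOD1) and -0.28 (KCNMA1). Their r after centring each block lay between -0.08 (NEXN) and 0.00 (KCNMA1).

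One sheep weighed on the CH4 yield relation. Without sheep oz175, the next lowest intake, r was -0.38 for SYNPO, -0.34 for CNN1, -0.32 for NEXN, -0.28 for KCNMA1 and -0.23 for LMOD1 (n = 60). In these 60 sheep, 4 of 5 members had an unadjusted limma p under 0.05 (lowest p = 0.00186, SYNPO), against 1 of 5 with oz175 kept, and so did 2248 of 16011 genes, against 1521 with oz175 kept. No member passed after adjustment (lowest adjusted p = 0.246, SYNPO), while 18 genes of the table (0.112%) did, against 0 with oz175 kept. Sheep oz175 also had the highest CNN1 (12.28) and NEXN (7.47) of block 4.

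Relations with CH4 production pointed opposite ways in different blocks. In block 1 r was 0.55 for NEXN, 0.53 for LMOD1, 0.49 for CNN1, 0.37 for SYNPO and 0.21 for KCNMA1. In block 3 it was -0.75 for SYNPO, -0.64 for KCNMA1, -0.58 for NEXN, -0.54 for LMOD1 and -0.48 for CNN1. Sheep oz151 and oz224 of block 3 had the same labelled CH4 production, 23.9 g/d. Sheep oz151, left out for its intake label elsewhere, was kept for this trait, and no alternative without it was run. Blocks 2 and 4 lay between -0.07 and 0.03 and between -0.39 and -0.20. The muscle mean did the same, with r of 0.42, -0.06, -0.60 and -0.37 in blocks 1 to 4. The test of slopes differing between blocks did not pass for any member after adjustment over all genes (adjusted p between 0.612 and 0.712), nor for any gene of the table (0%). Without adjustment 3 of 5 members were under 0.05 (SYNPO p = 0.0112, NEXN p = 0.0211, LMOD1 p = 0.0393), as were 7.41% of all genes. On CH4 yield, intake and live weight the slopes of the members did not pass either (lowest adjusted p = 0.813), and 0% of all genes did. Unadjusted p was under 0.05 there for 463, 963 and 464 genes, among them SYNPO on intake (p = 0.0194).

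**Figure D5:**
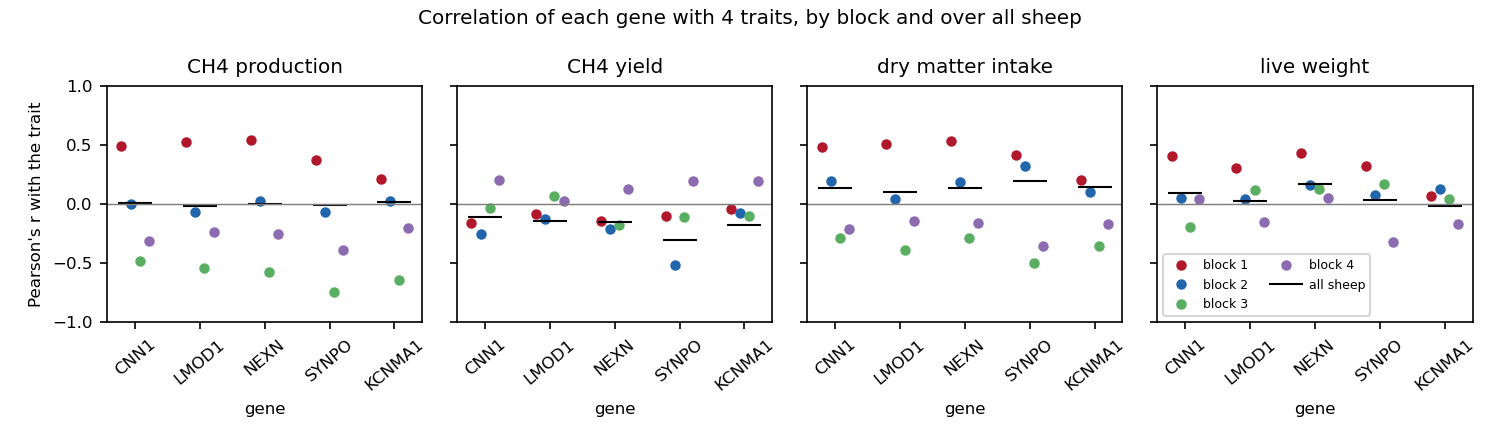
Pearson's r of each gene (x axis) with 4 traits (panels) within blocks 1 to 4 (coloured points, 13 to 16 sheep each) and over all sheep (bars). On CH4 production all 5 genes are positive in block 1 and negative in blocks 3 and 4, with r near 0 over all sheep.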

How the data were processed

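Full-thickness rumen wall libraries of 62 AUS sheep were used, and the sheep were grouped by test block. Per the labels and the methods of the study, the authors mapped stranded reads to Ensembl sheep genes and 14 added models by TopHat and Bowtie2, counted them with HTSeq, and processed the counts with edgeR and limma. The deposited values are log2 CPM from voom, with an offset of 0.5 reads, so low genes move in steps and fold changes of low genes are understated. Reads recovered from the log2 values were whole for 100% of values (tolerance 0.01 reads).

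Tests used limma 3.58.1 in R 4.3.3 with a variance trend on all 16011 genes, tested on simulated data, with a threshold of 0.05 after Benjamini-Hochberg adjustment. Permutation tests (2-sided, 100000 permutations) and correlations used numpy 2.4.6 and scipy 1.17.1 in Python 3.11.15. Alternatives changed the genes tested (3 CPM or more), weights, depth, normalization, variance trend, contrast, muscle measure, block and sheep. Symbols came from the paper's tables (1224 genes). Named genes were the members, KCNMB1, SYNPO2, up to 3 genes per list and direction with the smallest p among those that passed, and the 3 highest and lowest in r with each member, of which some are not reported here. The fits leaving out 1 sheep, the ratios of 2 genes and the junction, matrix and ion channel lists as muscle measures were added after seeing the data. No sequences or coordinates were used here. The members, the lists and the comparison of block 1 with blocks 2–4 were chosen with earlier results of these data known.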

Additional observations from a re-analysis of the deposited data

How the results depend on the processing

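The call of all 5 members as higher in block 1 was unchanged in the 6 refits by limma, in the permutation test and in the 62 fits that left out 1 sheep each, where all 5 were called every time. Over the 4 blocks, 4 members were called. All 5 were called with genes at 3 CPM or more, with depth in the fit and with median-ratio normalization. With voom weights 3 were called, 2 without a variance trend, and 2 to 5 when 1 sheep was left out. At equal muscle mean, 1 member was called, 0 with depth in the fit, 2 with the actin and myosin list, 0 with the matrix list, 2 with the ion channel list and 0 to 2 when 1 sheep was left out. In that comparison CNN1 turned to 0.10 with depth, 0.050 with the actin and myosin list and 0.0531 with the ion channel list, NEXN to 0.0627 and LMOD1 to 0.0722 with the actin and myosin list, and none of these 5 values passed. The genes called in all were 2293, against 1055 with depth and 3613 with the actin and myosin list. On CH4 yield, KCNMA1 turned to 0.000323 with block in the fit, CNN1 to 0.00476 in blocks 2–4 alone and LMOD1 to 0.00126 with sheep oz151 kept in, none of them called. For every trait 0 members were called under every alternative run. The cause of these shifts was not tested. No paired analysis was possible because each ewe was in 1 block only. Depth limits SYNPO most, with 27 to 235 reads per library.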
